A study of Mus musculus with 30 samples.

Results

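CARko/PXRko livers, which lack the xenobiotic receptors CAR and PXR, were compared with PXRko livers, which lack PXR alone, in mice given only corn oil. The comparison used 6 of the 30 arrays of the series, 3 of each genotype, chosen by their labels, and every gene with a probe set of its own (18193 genes, of which 12795 were bright enough to be tested). Both genotypes are labelled as adult male mice on a C57BL/6J background that received the vehicle, at 0 mg/kg of compound, for 3 days. Age is not given, nor how either gene was deleted. The 2 groups share the loss of PXR, so the difference between them carries the added loss of CAR, along with anything else that differs between the lines. The values are log2 levels per probe set, from the robust multi-array average (RMA), of RNA from whole liver. In such tissue, fewer cells of a type and less RNA per cell cannot be told apart.

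CAR (gene Nr1i3) and PXR (gene Nr1i2) are nuclear receptors that sense drugs, bile acids and steroids. Each pairs with RXR on DNA and switches on genes for oxidation, conjugation and transport, with Cyp2b10 the classical CAR target and Cyp3a11 the classical PXR target in mouse liver. CAR is held in the cytoplasm by a protein complex until an activator releases it, and both receptors are also known for effects on lipid and glucose metabolism and on inflammation. Without a drug, the comparison addresses what CAR contributes to the resting liver once PXR is gone.

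The deleted genes fitted the labels on all 6 arrays, and 3 of the arrays stood apart in other genes. The median probe set read 5.39 to 5.43 log2 units on each of the 6, the markers of hepatocytes had medians within -0.08 and 0.05 of wild type mice on corn oil (9 genes), and Xist (4.81 to 5.04) and Eif2s3y (9.78 to 10.2) fitted male mice. Most of the hepatocyte markers read close to the brightest probe set of each array, where differences can be compressed. CARko/PXRko replicate 2 carried transcripts of skeletal muscle. The median of 28 muscle genes was 5.97 above wild type mice on corn oil on that array, against 0.08 and 0.05 on the other CARko/PXRko arrays, and Acta1, the actin of skeletal muscle, read 14.63 there. PXRko replicate 3 held some too, with a muscle median of 0.97 and Acta1 at 9.85, while the other 4 arrays read between 5.45 and 5.52. The growth hormone pattern-dependent list also stood low on CARko/PXRko replicate 2, at a median of -0.73 against -0.02 to 0.17 on the other arrays. White fat markers stood high there (1.56 against -0.09 to 0.20), as did those of stellate cells and fibroblasts (0.75 against -0.23 to -0.03). So did growth genes linked to CAR (0.54 against -0.18 to 0.07). PXRko replicate 2 stood high for interferon-stimulated genes (median 0.79 against -0.37 to 0.14 on the other 5 arrays) and for markers of Kupffer cells and macrophages (0.70 against -0.38 to 0.07). Mean correlation with the other arrays of its group was 0.948 for CARko/PXRko replicate 2 and 0.969 to 0.988 for the rest. Leaving out 1 of these 3 arrays moved some described differences by over 1.5 times. The value without it is given for many of these, but not for every difference near 0.

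**Figure D1:**
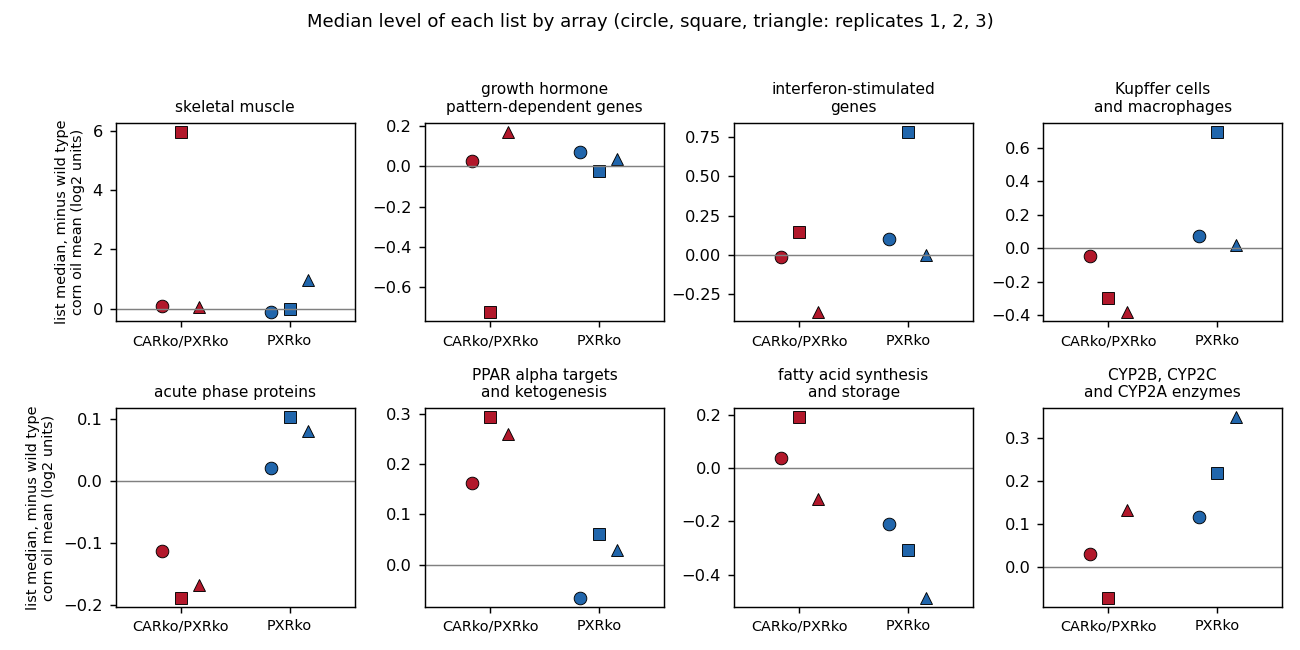
Median level of each of 8 gene lists on the 6 arrays, as the difference in log2 units from the mean of wild type mice on corn oil. CARko/PXRko replicate 2 (red square) stands at 5.97 for skeletal muscle and -0.73 for growth hormone pattern-dependent genes, and PXRko replicate 2 (blue square) at 0.79 for interferon-stimulated genes.

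The CAR gene itself and its neighbour were the 2 genes that passed adjustment, both lower. Nr1i3 read 6.51, 6.11 and 6.10 in CARko/PXRko replicates 1 to 3 and 10.09, 9.58 and 9.73 in PXRko. The groups were far apart, and the 3 CARko/PXRko arrays lay close to each other. The difference was -3.56 ± 0.21 log2 units (SE, 95% interval -4.00 to -3.12), an 11.8-fold lower level with a limma adjusted p of 1.57e-10. The remaining signal stood above the array median. Mice in which CAR and PXR are replaced by the human genes (hCAR/hPXR), whose mouse Nr1i3 is also gone by the labels, read nearly the same on corn oil, 6.05 to 6.44. PXRko overlapped wild type mice on corn oil, which read 9.32 to 10.09. Which part of the transcript the probe set covers was not analysed here.

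Tomm40l, the next gene along from Nr1i3 and a relative of the import channel of the outer mitochondrial membrane, read 7.07, 7.01 and 7.04 in CARko/PXRko and 8.06, 8.08 and 8.52 in PXRko. All 3 CARko/PXRko arrays were low and the groups did not overlap. It was lower by 2.27-fold (-1.18 ± 0.20 log2 units, SE), with a limma adjusted p of 0.0229. The call rested on all 6 arrays. Leaving out any 1 of them kept the difference between -1.26 and -1.03 and gave adjusted p-values of 0.0595 to 0.436, the highest without PXRko replicate 3. A fit on these 6 arrays alone gave 0.499. The low level returned in CARko/PXRko mice given drugs: their 9 arrays over all treatments read 6.72 to 7.46, below the lowest PXRko array. Unlike Nr1i3, Tomm40l was not low in hCAR/hPXR mice, where 9 arrays read 8.87 to 9.68, above all 9 wild type arrays (8.05 to 8.55).

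These were the 2 genes called among the 12795 tested, or 0.0156%. No gene was called higher. At an unadjusted limma p under 0.05 there were 353 genes (2.76%), 212 of them lower (1.66%) and 141 higher (1.1%). All 3 CARko/PXRko arrays lay below all 3 PXRko arrays for 750 genes (5.86%) and above them for 499 (3.9%). Both criteria together held for 157 genes that were lower (1.23%) and 83 that were higher (0.649%). Without CARko/PXRko replicate 2, and likewise without PXRko replicate 2, 1 gene was called (0.00782%), Nr1i3. A fit that weights each array by its agreement with its group raised the count of called genes to 22, with 17 lower and 5 higher. It gave CARko/PXRko replicate 2 a weight of 0.960 and the other 5 arrays weights of 1.99 to 7.48. Every gene named from here on was uncalled in the fit with equal weights, and its values are given as a description. Its limma adjusted p was 1.00 unless another is given.

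The other receptor gene did not separate the groups. Nr1i2 read 4.29, 4.70 and 4.76 in CARko/PXRko and 4.39, 4.71 and 4.33 in PXRko, below the array median in both and well under the 6.75 to 8.04 of wild type mice. Its difference was 0.10 ± 0.23.

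**Figure D2:**
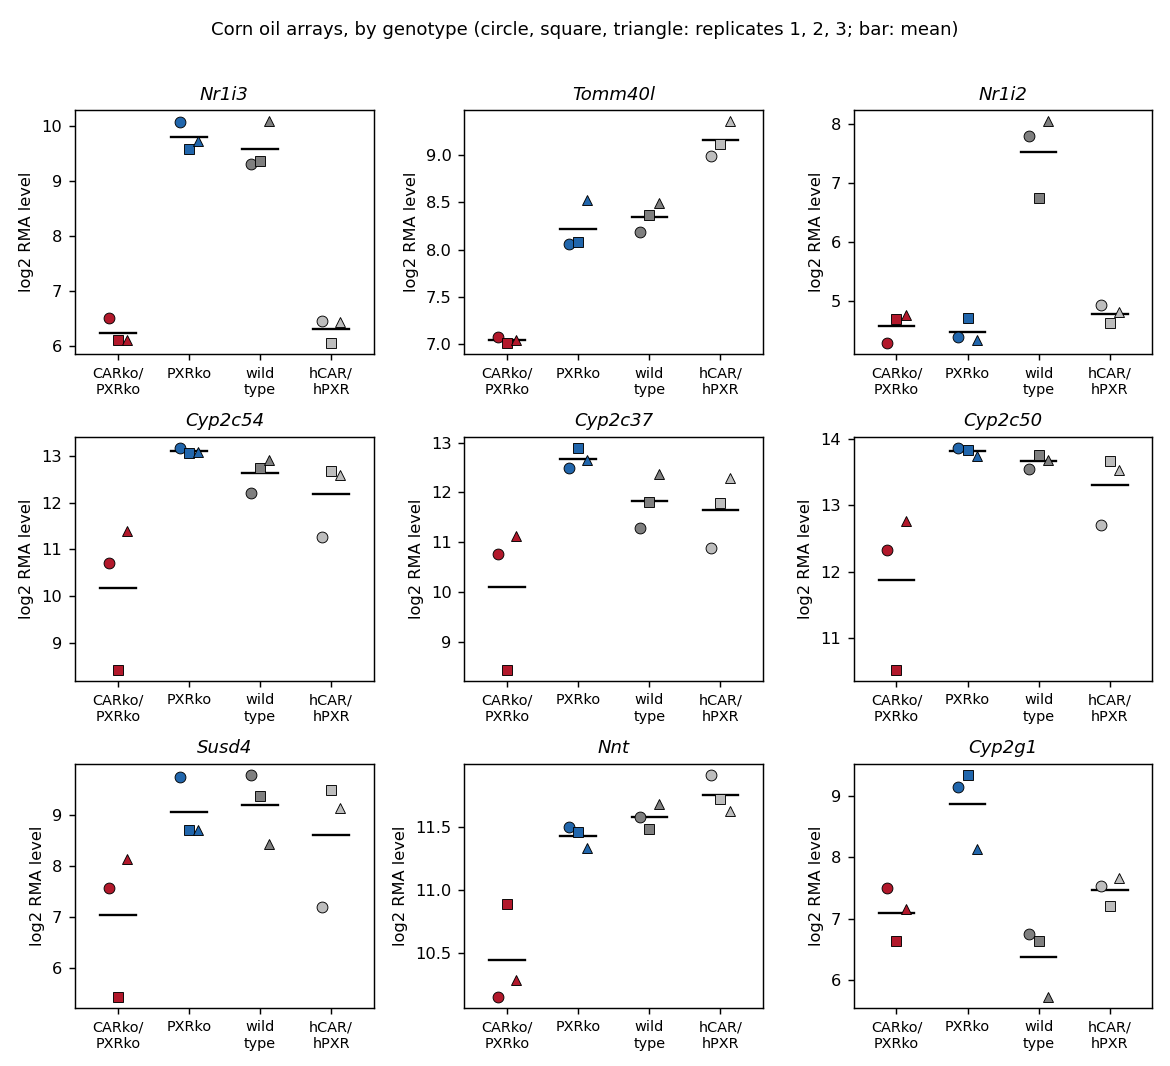
Log2 RMA level of 9 genes on each corn oil array by genotype, with bars at the group means. Nr1i3 lies at 6.10 to 6.51 in CARko/PXRko against 9.58 to 10.09 in PXRko, Nr1i2 is at the bottom in both, and Cyp2g1 stands high only in PXRko among the 4 corn oil groups.

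Around the deleted genes, Tomm40l was the one neighbour called. Of the 10 genes on each side of Nr1i3 in the GRCm38.p6 gene order, 17 of 20 were tested. The 16 beside Tomm40l lay between -0.86 and 0.12, and Pcp4l1, the neighbour on the opposite side, differed by -0.14 ± 0.38. Apoa2, a lipoprotein gene just past Tomm40l, had all CARko/PXRko arrays below PXRko by a small margin (-0.14 ± 0.07). The lowest was Fcgr4, an activating Fc receptor of macrophages, at 6.72, 6.31 and 6.33 in CARko/PXRko and 6.82, 8.10 and 7.02 in PXRko. Its groups did not overlap, and PXRko replicate 2, the array high in macrophage markers, was well above the other arrays (-0.86 ± 0.32, and -0.47 without it). The part of those markers in the result was not tested. Around Nr1i2, 14 of 20 neighbours were tested and 0 were called by limma, with 1 at an unadjusted p under 0.05. That was Pla1a, a phosphatidylserine phospholipase, at 9.60, 9.24 and 9.36 against 9.85, 9.98 and 9.76 (-0.46 ± 0.18).

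**Figure D3:**
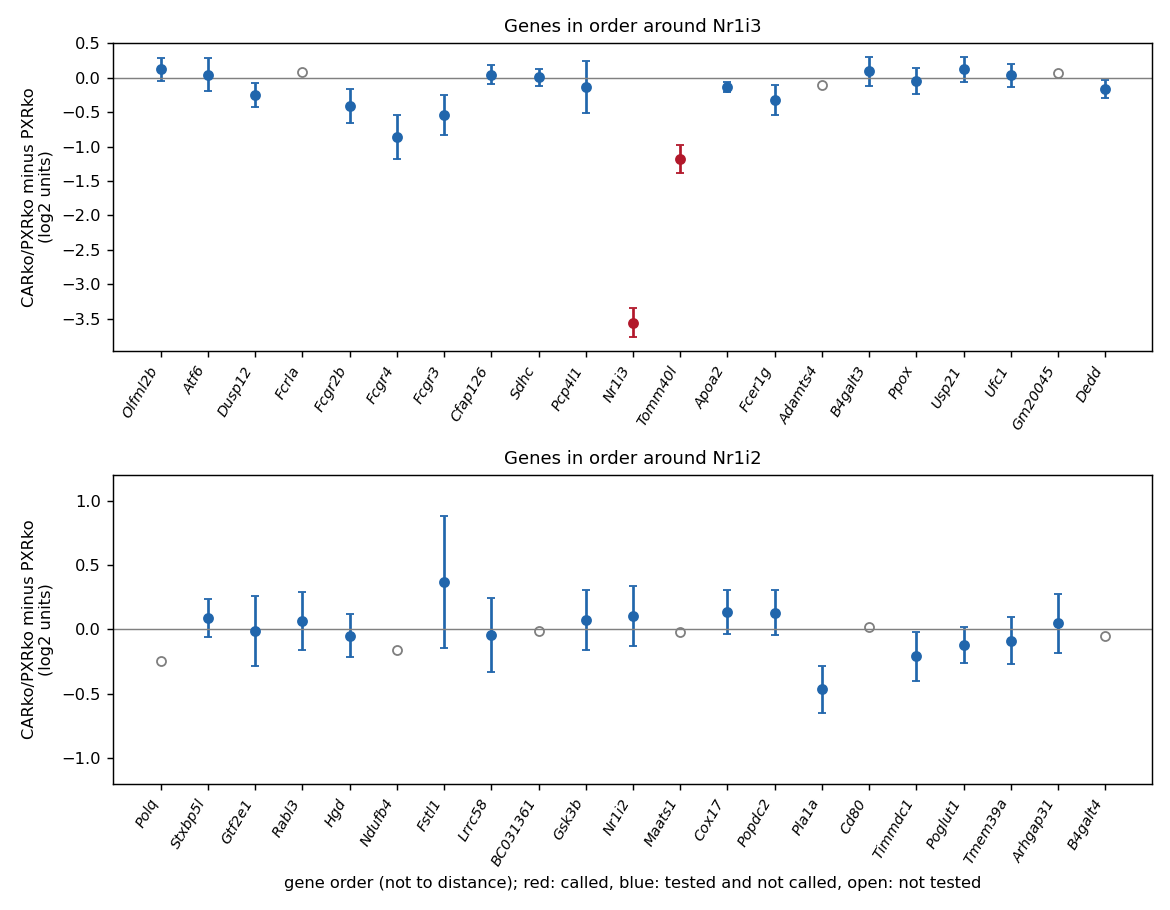
Difference between CARko/PXRko and PXRko (log2 units, points with SE) for the 10 genes on either side of Nr1i3 (top) and Nr1i2 (bottom), in gene order. Nr1i3 at -3.56 and Tomm40l at -1.18 are the called genes, and the next lowest is Fcgr4 at -0.86.

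The widest gaps after Nr1i3 among the drug-handling genes were in 3 clustered cytochromes. Cyp2c54, Cyp2c37 and Cyp2c50 are drug- and fatty acid-oxidizing enzymes of the Cyp2c cluster. Cyp2c54 read 10.71, 8.42 and 11.39 in CARko/PXRko and 13.17, 13.07 and 13.09 in PXRko. Cyp2c37 read 10.76, 8.44 and 11.13 in CARko/PXRko and 12.48, 12.88 and 12.65 in PXRko. Cyp2c50 read 12.33, 10.53 and 12.77 in CARko/PXRko and 13.86, 13.84 and 13.75 in PXRko. In all 3 genes the groups did not overlap, the PXRko arrays were tight, and CARko/PXRko replicate 2 was far the lowest. The differences were -2.93 ± 0.72 for Cyp2c54, -2.56 ± 0.67 for Cyp2c37 and -1.94 ± 0.57 for Cyp2c50. None passed adjustment over all genes, with limma adjusted p-values of 0.859 for Cyp2c54 and 1.00 for the others.

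Without CARko/PXRko replicate 2, the array with muscle transcripts, the differences shrank to -2.06 for Cyp2c54, -1.73 for Cyp2c37 and -1.26 for Cyp2c50. The part of the muscle transcripts in the lower level of that array was not tested. With array weights, limma adjusted p-values were 0.0115 for Cyp2c54, 0.0223 for Cyp2c37 and 0.0565 for Cyp2c50. Over the 19 alternatives they ran from those values up to 1.00.

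The low levels of these 3 genes came back in the treated mice of the same genotype. All 9 CARko/PXRko arrays lay below the lowest PXRko array for each gene. Their medians were 10.71 for Cyp2c54, 10.90 for Cyp2c37 and 11.47 for Cyp2c50. They cover corn oil, 1,4-dichlorobenzene (DCB, 600 mg/kg) and cyproterone acetate (CPA, 160 mg/kg), each for 3 days. The corn oil arrays among them lay below by the rule that named these genes. CARko/PXRko mice given 1,4-dichlorobenzene spread widely, from 6.83 to 10.93 for Cyp2c54 and from 7.01 to 10.90 for Cyp2c37. Replicate 3 of that group was the lowest for all 3 genes. It also read 8.05 for Jph1, a gene of muscle, against 3.85 and 5.15 on replicates 1 and 2, and 10.48 for Hspb6 against 7.95 and 8.01. Both genes were also high on corn oil CARko/PXRko replicate 2. The part of muscle transcripts in its low levels was not tested. Wild type mice on corn oil read 12.22 to 12.93 for Cyp2c54 and 13.55 to 13.75 for Cyp2c50, and hCAR/hPXR mice 11.27 to 12.67 and 12.70 to 13.67. The corn oil arrays of wild type mice also lay below all PXRko arrays for Cyp2c54 and Cyp2c37 (11.29 to 12.37), and those of hCAR/hPXR mice for all 3 genes. Over all treatments, 7 of 9 hCAR/hPXR and 3 of 9 wild type arrays lay below the lowest PXRko array for Cyp2c54. The counts were 4 and 7 for Cyp2c37, and 5 and 2 for Cyp2c50. Both genotypes received CPA for 6 days, against 3 days in CARko/PXRko, so counts over all treatments mix durations. PXRko mice received no drug in this series.

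**Figure D4:**
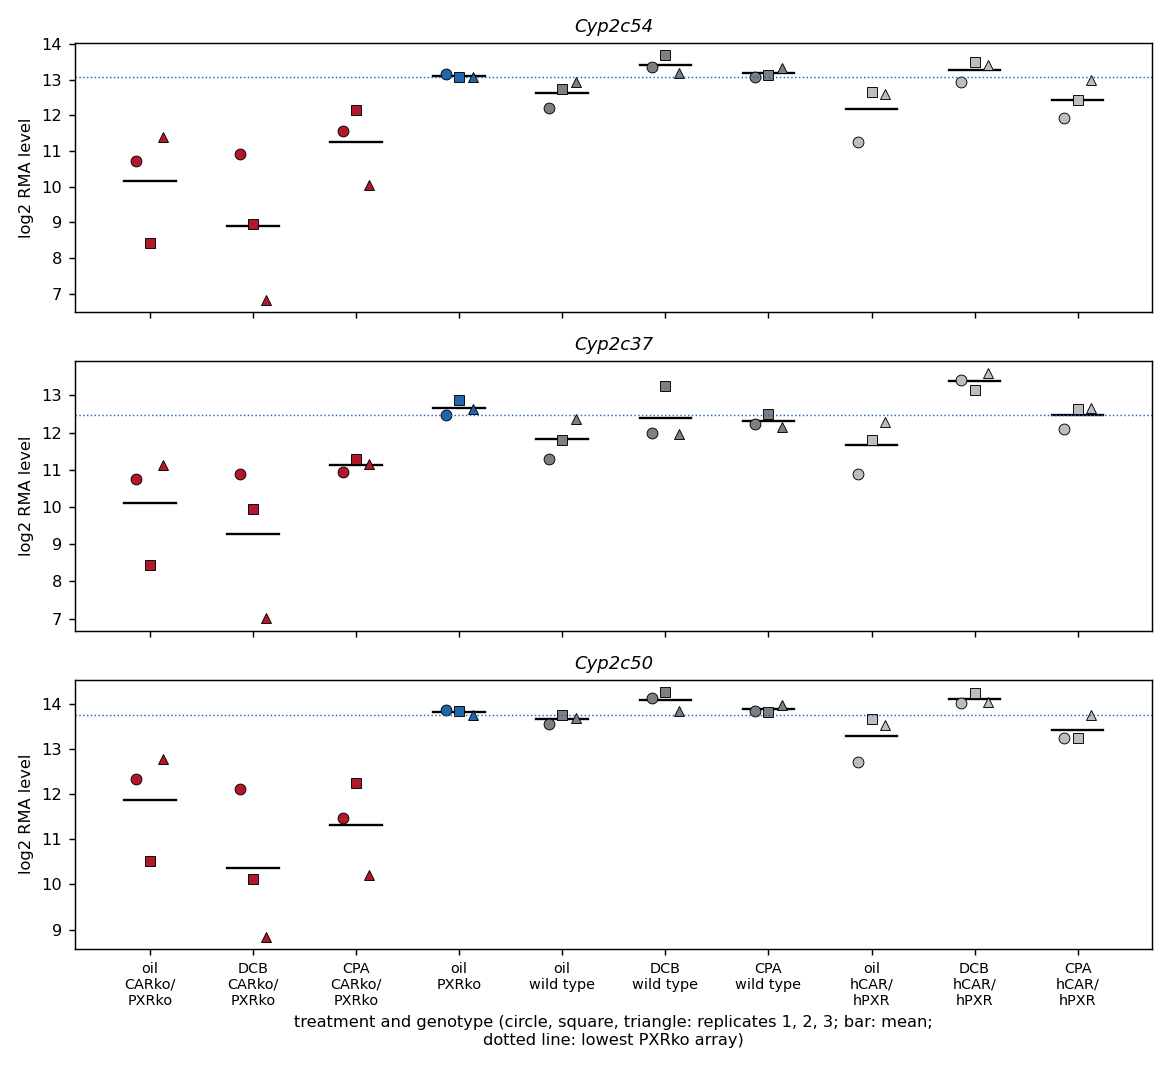
Log2 RMA level of Cyp2c54, Cyp2c37 and Cyp2c50 in all 10 groups, with each array, the group means as bars and the lowest PXRko array as a dotted line. All 9 CARko/PXRko arrays lie below that line for each gene.

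The windows at the start sites of Cyp2c37 and Cyp2c50 are shown because these genes moved side by side and are near copies of each other. The tables used here hold no window for Cyp2c54 or Tomm40l. Both windows run 5′ to 3′ over 300 bases around the start (RefSeq, GRCm38.p6), at chr19:39992174-39992473 and chr19:40089429-40089728, both on the plus strand. Capitals mark matches, on either strand, to the receptor core motifs AGGTCA and AGTTCA and to CAAAGTNCA, a form of the HNF4 site.
Cyp2c37: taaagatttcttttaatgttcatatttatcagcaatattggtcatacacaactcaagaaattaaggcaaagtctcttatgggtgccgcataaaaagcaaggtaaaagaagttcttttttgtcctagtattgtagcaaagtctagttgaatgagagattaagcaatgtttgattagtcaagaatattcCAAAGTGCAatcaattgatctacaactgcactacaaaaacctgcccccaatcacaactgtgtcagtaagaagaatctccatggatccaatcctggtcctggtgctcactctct
Cyp2c50: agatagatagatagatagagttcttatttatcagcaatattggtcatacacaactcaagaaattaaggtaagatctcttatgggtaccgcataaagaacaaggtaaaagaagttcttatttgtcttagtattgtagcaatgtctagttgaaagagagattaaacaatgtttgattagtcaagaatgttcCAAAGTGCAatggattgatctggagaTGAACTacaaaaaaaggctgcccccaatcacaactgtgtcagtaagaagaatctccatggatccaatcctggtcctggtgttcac
The windows were identical at 264 of 295 aligned bases (89.5%). Each held 1 match to CAAAGTNCA, a motif found in 1.41% of the 32851 start windows of the table. Cyp2c50 also held 1 AGTTCA, on the minus strand, which 14% of windows hold, and the matches did not overlap. Neither held AGGTCA (16.3% of windows) or a pair of AGGTCA with 4 bases between on 1 strand (0.0152%), and the absence says only that these letters are not in these windows. Such near copies can share signal between their probe sets, which makes the separate levels of the 3 genes uncertain.

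The CYP2B, CYP2C and CYP2A list as a whole leaned low by little. Of 24 listed genes 12 were tested and 0 were called by limma, with 4 at an unadjusted p under 0.05, all lower. The median difference was -0.20, against -0.01 over all genes tested, and 6 of 12 had CARko/PXRko arrays all below PXRko, against 5.86% of all genes. Cyp2a12, a steroid hydroxylase, read 12.84, 12.84 and 12.98 against 13.42, 13.33 and 13.19 (-0.42 ± 0.16). Cyp2c29 read 13.85, 13.99 and 14.08 against 14.16, 14.24 and 14.16, apart by a narrow margin (-0.21 ± 0.15). Cyp2c55 overlapped, at 9.94 to 10.11 against 9.88 to 10.50, with both genotypes above the 7.81 to 7.86 of wild type mice. Cyp2b10, the classical CAR target, read 5.28, 7.73 and 6.37 in CARko/PXRko and 5.63, 6.74 and 6.42 in PXRko, with full overlap (0.19 ± 0.77, 95% interval -1.39 to 1.78). That interval is wide enough to hold a change of over 2-fold in either direction. The sign rested on single arrays, with -0.44 without CARko/PXRko replicate 2 and 0.43 without PXRko replicate 2. Other tested probe sets of Cyp2b10 differed by 0.89 ± 0.94 and 0.37 ± 0.997, with overlap in both.

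Cyp3a11, the classical PXR target, read 14.65, 14.79 and 14.75 against 14.70, 14.75 and 14.79, with full overlap. These readings were close to the brightest probe set of each array, where differences can be compressed. Whether this hid a difference in Cyp3a11 was not tested. The 4 tested genes of the CYP3A list differed by -0.21 to -0.02 with none apart.

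Cyp2g1, an olfactory cytochrome also present in liver, stood high in PXRko. It read 7.50, 6.64 and 7.15 in CARko/PXRko and 9.14, 9.34 and 8.13 in PXRko, without overlap (-1.78 ± 0.44, limma adjusted p = 0.870). Wild type arrays on corn oil were lower still, at 5.73 to 6.75. Over all treatments the 9 wild type, 9 hCAR/hPXR and 9 CARko/PXRko arrays lay below the lowest PXRko array. The corn oil CARko/PXRko arrays did so by the rule that named the gene.

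Conjugation enzymes leaned low. Of 36 tested (44 listed), 30 had a negative difference with a median of -0.15, 9 had CARko/PXRko arrays all below PXRko (5.86% of all genes) and 0 all above (3.9%), and 0 were called by limma, with 1 at an unadjusted p under 0.05 in each direction. Gstt3, a theta-class glutathione transferase, read 8.91, 7.92 and 8.39 against 9.45, 9.26 and 9.19 (-0.89 ± 0.37). The sulfotransferase Sult1d1 read 10.38, 10.85 and 10.97 against 11.46, 11.35 and 11.58, and Sult1b1 7.83 to 8.41 against 8.58 to 9.14. Sult2a8, a bile acid sulfotransferase, was low on CARko/PXRko replicate 2 alone (11.48), with 13.75 and 13.78 on the other arrays against 13.78 to 13.93 (-0.86, and -0.10 without that array). Without that array, 27 of 36 were negative, 11 were apart and lower, against 10.4% of all genes tested, and the median was -0.08.

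Transporters and the partners of CAR stayed together. Of 15 tested transporters, 1 was apart, Slco2a1, a prostaglandin carrier, which was higher (0.33 ± 0.29), a count near the 3.9% of all genes. Of 23 tested partners, cytoplasmic retention proteins and coregulators, 0 were apart, 0 were called by limma, 0 had an unadjusted p under 0.05, and the median was 0.00. Rxra, the DNA partner of CAR, differed by 0.09 ± 0.28, and Hnf4a, a master regulator of hepatocyte genes, by -0.01 ± 0.26. Among 20 other receptors and sensors the widest was Nr0b2, the repressor SHP, at 0.45 ± 0.55, with Ppara at -0.05 ± 0.47 and Ahr at -0.23 ± 0.26. Of the 20, 2 were apart and higher (3.9% of all genes), Pparg (0.36 ± 0.22) and Nr4a1 (0.37 ± 0.28). Nr5a2 was the 1 apart and lower (-0.42 ± 0.24, 5.86% of all genes).

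**Figure D5:**
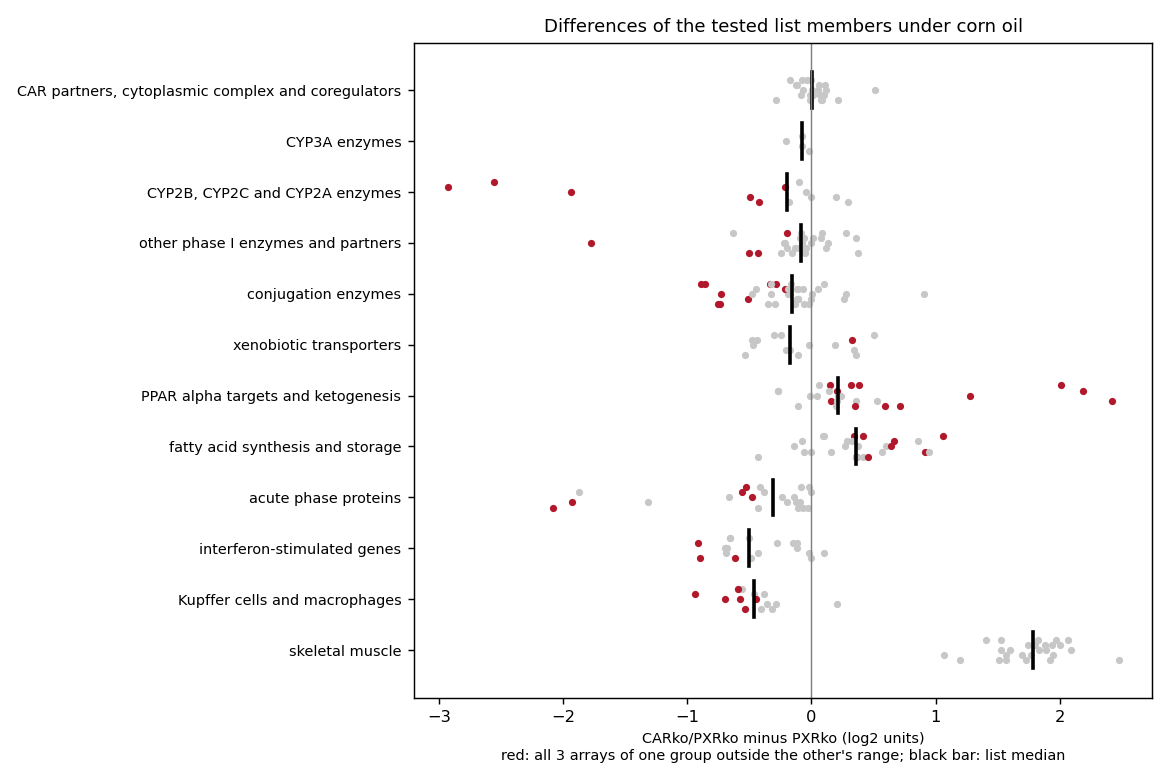
Differences between CARko/PXRko and PXRko (log2 units) for the tested members of 12 lists, with list medians as bars and members whose groups did not overlap in red. The PPAR alpha list has 12 of 25 members apart and higher, the acute phase list has all 22 members below 0, and the skeletal muscle list at 1.78 has none apart.

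Targets of PPAR alpha, the receptor that drives fatty acid burning in fasting, leaned high. Of 25 tested (28 listed), 21 had a positive difference with a median of 0.22, 12 had CARko/PXRko arrays all above PXRko against 3.9% of all genes, and 0 were called by limma, with 2 at an unadjusted p under 0.05. Fgf21, a fasting hormone made by hepatocytes, read 8.62, 7.84 and 9.47 in CARko/PXRko and 6.13, 7.24 and 6.00 in PXRko. All 3 CARko/PXRko arrays were high against PXRko, whose replicate 2 came nearest to them (2.19 ± 0.89). On corn oil, wild type mice read 6.26 to 8.36 and hCAR/hPXR mice 6.52 to 9.83. Both overlapped CARko/PXRko as well as PXRko. Cyp4a14, a fatty acid hydroxylase, read 11.69, 12.45 and 12.14 against 9.14, 11.08 and 10.02 (2.01 ± 1.24). Its groups did not overlap, but its level varied widely over the 30 arrays. Acot3, a peroxisomal thioesterase, read 7.62, 8.11 and 8.43 against 6.27 to 7.08, without overlap (1.27 ± 0.79).

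Other members of the list had smaller differences. Hadha, the alpha subunit of the trifunctional protein, read 10.29, 10.81 and 10.35 against 10.08, 10.16 and 10.08 (0.38 ± 0.18, and 0.22 without CARko/PXRko replicate 2). Its partner Hadhb read 12.24, 12.82 and 12.24 against 12.06, 12.15 and 12.03 (0.35, and 0.16 without that array), and Bdh1, which interconverts ketone bodies, 11.60 to 11.70 against 11.29 to 11.41. Cpt1a, the entry step of mitochondrial fat oxidation, overlapped (0.20 ± 0.54).

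Pdk4, a kinase that holds back glucose oxidation, had the largest positive difference among genes past an unadjusted p of 0.05 with arrays apart (2.42 ± 0.92), and 1 array made most of it. It read 7.48, 12.05 and 7.91 in CARko/PXRko and 7.03, 6.26 and 6.88 in PXRko, and muscle also expresses it. The difference was 0.97 without CARko/PXRko replicate 2. Jph1, a junction protein of muscle, read 9.15 on that array and 5.12 and 5.52 on the other CARko/PXRko arrays against 4.42 to 4.80 (1.96, and 0.68 without it), and Hspb6, Hspb3 and Bin1 were likewise highest there. The part of the muscle transcripts in these values was not tested. For the PPAR alpha list without that array, 25 of 25 members had a positive difference, the median was 0.22, and 15 were apart against 9.21% of all genes. Without PXRko replicate 2, 16 were apart against 7.38%, with a median of 0.27. Without both replicates 2, 24 of 25 were positive with a median of 0.25, and 21 were apart against 14.2%.

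Genes of fatty acid synthesis and storage leaned the same way between the 2 groups. Against wild type mice on corn oil, their median was 0.04, 0.19 and -0.11 in CARko/PXRko and -0.21, -0.31 and -0.49 in PXRko. PXRko was thus the group further from wild type. For the PPAR alpha list these medians were 0.16, 0.29 and 0.26 in CARko/PXRko and -0.07, 0.06 and 0.03 in PXRko. Of 27 tested, 22 had a positive difference with a median of 0.36, 8 had CARko/PXRko arrays all above PXRko (3.9% of all genes) and 0 all below, and 0 were called by limma, with 3 at an unadjusted p under 0.05. Those were Elovl5 (0.67 ± 0.30), which lengthens polyunsaturated fatty acids, Fads2 (0.91 ± 0.42), which desaturates them, and Plin5 (0.64 ± 0.30), which ties lipid droplets to mitochondria. Plin5 read 9.40, 9.73 and 9.43 against 8.71, 8.95 and 8.98. Fads2 read 11.14, 12.18 and 10.81 against 10.74, 10.48 and 10.18, with CARko/PXRko replicate 2 well above the others. Without that array Fads2 differed by 0.51 and Elovl5 by 0.39. Wild type mice on corn oil read 10.62 to 11.90 for Fads2, overlapping both groups. Pnpla3, a lipid droplet hydrolase, read 6.84, 7.53 and 6.68 against 6.01, 6.02 and 5.84 (1.06 ± 0.73). Fasn, fatty acid synthase, overlapped, at 11.57 to 12.28 against 10.95 to 11.97 (0.38 ± 0.96, and 0.10 without PXRko replicate 3). The median was 0.20 without CARko/PXRko replicate 2, 9 of 27 were apart and higher against 9.21% of all genes, and none of the 27 had an unadjusted p under 0.05. Without both arrays with muscle transcripts the median was 0.12. There 9 members were apart and higher against 18% of all genes, 2 were apart and lower against 18.9%, and 1 was lower at an unadjusted p under 0.05.

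Apoa4, a lipoprotein of fat export, read 13.51, 14.22 and 13.16 against 12.51, 12.75 and 12.12, without overlap on both of its probe sets (1.17 ± 0.47 and 1.44 ± 0.55). Acot4, a peroxisomal thioesterase, read 6.87, 7.06 and 7.01 against 6.35, 6.16 and 5.84, with 0.86 ± 0.36 and 0.85 ± 0.37 on its probe sets. Neither gene was called. Wild type mice on corn oil read 6.46 to 7.70 for Acot4, overlapping CARko/PXRko and lying above PXRko. For Apoa4 they read 11.65 to 13.07, overlapping PXRko and lying below CARko/PXRko.

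Acute phase proteins, which the liver secretes in inflammation, leaned low. All 22 tested had a negative difference, some close to 0, with a median of -0.31. In 5 of them CARko/PXRko arrays lay below all PXRko arrays (5.86% of all genes), 0 were called by limma and 1 had an unadjusted p under 0.05. That was Orm1, a serum carrier, at 13.35, 13.24 and 13.41 against 13.70, 13.76 and 13.97 (-0.48 ± 0.19). Saa1, serum amyloid A, read 9.62, 11.66 and 9.64 in CARko/PXRko and 12.44, 12.11 and 12.61 in PXRko. Its replicate 2 was the highest CARko/PXRko array and the groups still did not overlap (-2.08 ± 1.10). Saa2 read 7.28, 9.21 and 7.40 against 9.66, 10.05 and 9.97 (-1.93 ± 1.06).

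Lcn2, an iron-trapping defence protein, read 5.52, 8.79 and 5.27 against 7.96, 8.15 and 7.42. Replicate 2 of CARko/PXRko overlapped PXRko, and the other CARko/PXRko arrays were low (-1.32 ± 0.78, and -2.45 without replicate 2). The fibrinogen chains Fga, Fgb and Fgg, the clot-forming proteins, overlapped, with differences of -0.02 to -0.01. Fgb and Fgg also read close to the brightest probe set of each array, where differences can be compressed. Without CARko/PXRko replicate 2, 22 of 22 stayed negative, with 12 apart against 10.4% and a median of -0.24. Without PXRko replicate 2, 20 of 22 were negative and the median was -0.18. Without both, 19 of 22 were negative, with 13 apart against 17.7% and a median of -0.24.

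Markers of Kupffer cells and macrophages had a negative difference in 14 of 15, with a median of -0.46, and 0 were called by limma. In 6 the arrays were apart and lower (5.86% of all genes), and 6 were lower at an unadjusted p under 0.05 (1.66%). Timd4, a receptor of resident Kupffer cells, read 6.34, 5.50 and 6.04 against 6.48, 7.51 and 6.71 (-0.94 ± 0.26). Clec4f, a lectin of Kupffer cells, averaged 9.78 in CARko/PXRko and read 10.21, 10.66 and 10.21 in PXRko, without overlap, and C1qb, a complement subunit, 9.56, 9.41 and 9.03 against 9.73, 10.54 and 9.82. PXRko replicate 2 was the highest of the 6 arrays in each. Without it, Timd4 differed by -0.63, C1qb by -0.44 and Clec4f by -0.43, the list median was -0.27, 14 of 15 were still negative, 6 were apart and lower against 10.9% of all genes, and 2 had an unadjusted p under 0.05. Without both replicates 2, Timd4 differed by -0.40, the median was -0.25 with 14 of 15 negative, 8 were apart and lower against 17.7%, and 0 had an unadjusted p under 0.05 by limma. The level of macrophage markers and that of the acute phase genes moved in the same direction between the groups, and the part of one in the other was not tested.

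Interferon-stimulated genes leaned low, and 1 PXRko array carried much of it. Of 19 tested, 18 were negative with a median of -0.50, 3 were apart and lower (5.86% of all genes), 6 had an unadjusted p under 0.05 (1.66%) and 0 were called by limma. Usp18, a brake on interferon signalling, read 8.49, 8.32 and 7.60 against 8.80, 9.67 and 8.68 (-0.91 ± 0.29). Psmb9, a subunit of the immunoproteasome, read 9.02, 8.86 and 8.19 against 9.06, 10.64 and 9.07 (-0.90 ± 0.42), and Igtp, an interferon-induced GTPase, 12.41 on PXRko replicate 2 against 9.31 to 9.93 on the other 5 arrays. Without PXRko replicate 2, Usp18 differed by -0.61, Psmb9 by -0.38 and Igtp by 0.33. Gbp2b, of the same GTPase class, read 6.14, 4.78 and 5.92 against 6.40, 8.82 and 6.22 (-1.54 ± 0.45, and -0.70 without PXRko replicate 2). Without PXRko replicate 2, the median was -0.05, with 12 of 19 negative and 0 at an unadjusted p under 0.05. Without CARko/PXRko replicate 2 it was -0.59, and without both it was -0.24, with 17 of 19 negative. The part of PXRko replicate 2's macrophage markers in the result was not tested.

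Several single genes outside the lists stood apart. Nnt, the mitochondrial transhydrogenase that makes NADPH and that carries a deletion in C57BL/6J mice, read 10.16, 10.89 and 10.29 in CARko/PXRko and 11.50, 11.46 and 11.33 in PXRko (-0.98 ± 0.24, limma adjusted p = 0.859). Of its other probe sets, 1 differed by -0.995 ± 0.267 and 1, below the array median in both groups, by -0.03. Levels in wild type (11.48 to 11.68) and hCAR/hPXR (11.62 to 11.91) mice on corn oil were near or above those of PXRko. All 9 CARko/PXRko arrays, at 9.97 to 11.05, lay below the lowest PXRko array, those on corn oil by the rule that named the gene. So did 5 of 9 wild type and 4 of 9 hCAR/hPXR arrays over all treatments. Without CARko/PXRko replicate 2 the difference was -1.21, and the genotype at Nnt is not given in the labels.

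Susd4, a complement inhibitor, read 7.57, 5.44 and 8.14 against 9.75, 8.72 and 8.71 on 1 probe set (-2.01 ± 0.60) and differed by -1.32 ± 0.44 on the other. CARko/PXRko replicate 2 was lowest, and without it the difference was -1.21. All 9 CARko/PXRko arrays lay below the lowest PXRko array, as did 6 of 9 hCAR/hPXR and 4 of 9 wild type arrays over all treatments. The corn oil CARko/PXRko arrays did so by the rule that named the gene. Egr1, an immediate early transcription factor, read 9.88, 9.99 and 10.09 against 8.63, 8.35 and 7.18, tight and high in CARko/PXRko (1.93 ± 0.82). Over all treatments 6 of 9 CARko/PXRko arrays lay above the highest PXRko array and 2 below the lowest. The corn oil arrays among them lay above by the rule that named the gene. Treated CARko/PXRko arrays read 6.84 to 9.02 with CPA and 6.85 to 10.35 with DCB. Unc13b, a vesicle priming protein, read 8.44, 7.92 and 8.04 against 6.72, 6.86 and 7.27 (1.18 ± 0.38). Its other probe set, below the array median in both groups, differed by -0.08, and the mean of both by 0.55. Over all treatments 5 of 9 CARko/PXRko arrays lay above the highest PXRko array and 1 below the lowest. Here too the corn oil arrays lay above by the naming rule. Treated CARko/PXRko arrays read 6.20 to 7.17 with CPA and 6.91 to 7.93 with DCB. Wild type arrays over all treatments (7.33 to 8.18) lay above all 3 PXRko arrays for this gene.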

How the data were processed

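The series holds 30 Affymetrix arrays of mouse liver RNA, 3 for each of 10 groups. The authors deposited log2 probe set values made by RMA, per the submitters' processing notes, with no version or settings named there. Of 45037 probe sets, 34945 were annotated to 1 gene, 932 to several and 9160 to none. For each gene, the single-gene probe set brightest on average over the series was kept, and it was tested where it exceeded the array median on at least 3 arrays. One coefficient per group was estimated from all 30 arrays (limma 3.58.1, R 4.3.3, 20 residual degrees of freedom, prior 3.62), and two-sided p-values were adjusted by Benjamini-Hochberg over all tested genes. Called means adjusted p under 0.05. The fit was checked on simulated data. The number of arrays limits the precision. The design states 5 mice per group, and the labels do not say that each array is a separate mouse, so p-values measure the spread between these arrays, which may be technical. The genes, the 40 lists and the comparison were chosen with earlier results of these data known. Named are called genes, the 12 largest differences each way among genes with an unadjusted p under 0.05 and groups apart, Nr1i3, Nr1i2, Tomm40l, Cyp2b10, Cyp3a11, up to 4 smallest p-values per list and the neighbours of the deleted genes; other list members were named after their values were seen. Of 783 list memberships, 688 had a probe set and 640 were tested. Gene order, from RefSeq GRCm38.p6, was used only to name neighbours. Alternatives changed the filter, scaling, probe set choice, variance model, array weights, arrays fitted and replicate block.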

Additional observations from a re-analysis of the deposited data

How the results depend on the processing

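Nr1i3 stayed called and lower under all 19 alternatives, at -3.70 to -3.36 log2 units. The count of called genes stayed at 2 under no filter, the 75th percentile filter, a second quantile normalization, centring on array medians, averaging each gene's probe sets, a trended robust variance and the 4 corn oil groups alone. It rose to 22 with array weights, whose estimation stopped before full convergence, with 1178 genes at an unadjusted p under 0.05. It was 1, Nr1i3, in the 6 arrays alone, both with the replicate number as a block and without it, with a test against a 2-fold change, without both arrays with muscle transcripts, and without both replicates 2 (an alternative added after seeing the data). Leaving out each array in turn gave 1 to 1. The replicate numbers showed no sign of pairing the samples. Same-number correlations were 0.17, -0.06 and -0.11, within the -0.22 to 0.19 of different numbers. With 3 arrays a group these values cannot exclude a pairing. Tomm40l kept its direction in all 19, at -1.27 to -1.02. Beside the count of called genes, 208 values were followed (168 genes, the called ones included, and 40 list medians). Over the alternatives, a list median moved by at least the spread between arrays in 62 comparisons. Tomm40l lost its call in 11 of the 19 alternatives, and no other gene lost one. A gene gained a call in 8 comparisons. A reversal could be scored only for a gene called in either fit, and 0 were found. The median of all genes moved by under 0.1. Signs of small list medians changed, among them CYP3A enzymes (0.04 without CARko/PXRko replicate 1), transporters (0.03 at most) and growth hormone pattern-dependent genes (0.05 without CARko/PXRko replicate 2). The cause was not tested. With 3 arrays a group, a difference as wide as that of Cyp2c54 (-2.93 ± 0.72) was not called.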

Other observations

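Genes of cholesterol synthesis and uptake had a positive median of 0.23 over 20 tested, 16 of them positive, but all overlapped and 0 were called by limma, with 0 at an unadjusted p under 0.05. Single arrays moved this: without PXRko replicate 1, 11 of 20 were apart and higher against 8.37% of all genes, with a median of 0.38, and without CARko/PXRko replicate 3, 6 were, against 9.28%. The median was 0.09 without CARko/PXRko replicate 1. Mvd, a mevalonate pathway decarboxylase, read 8.90, 8.99 and 7.74 in CARko/PXRko and 8.37, 7.66 and 7.45 in PXRko. In both groups 1 or 2 arrays stood high across the pathway: Hmgcs1, its first committed synthase, read 13.90 and 13.95 on CARko/PXRko replicates 1 and 2 and 13.88 on PXRko replicate 1, against 13.05 to 13.23 on the others.

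Bile acid genes were mixed, with a median of -0.14 over 22, and of -0.03 with 10 positive and 12 negative without CARko/PXRko replicate 2, the array with muscle transcripts. Baat, which conjugates bile acids, read 11.19, 10.51 and 11.13 against 11.34, 11.24 and 11.47 (-0.41, and -0.19 without that array), and Cyp7a1, the rate-limiting enzyme of their synthesis, 11.16, 11.50 and 9.73 against 11.54, 9.48 and 9.31. Male-biased genes under growth hormone control were low on 1 array: Hsd3b5, a steroid reductase, read 5.46 on CARko/PXRko replicate 2 and 12.64 to 13.13 on the other 5.

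Among growth genes linked to CAR, 0 of 25 were called by limma and 0 had an unadjusted p under 0.05. Ccnd1, a cyclin of cell cycle entry, read 9.42, 11.75 and 9.40 against 8.65, 9.54 and 8.54. Clock genes overlapped in 17 of 19, and the clock activator Arntl read 6.24, 7.67 and 6.12 against 5.66, 5.99 and 5.95.

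A separate fit took the probe sets that name no single gene: of 3700 tested, 0 were called by limma, 66 had an unadjusted p under 0.05, and the smallest adjusted p was 0.0520. That probe set is annotated to several genes and was higher in CARko/PXRko (1.49 ± 0.27). The next by p, also annotated to several genes, differed by -0.79 ± 0.16 and 1.48 ± 0.32, with limma adjusted p-values of 0.112 and 0.121.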
